A study of Mus musculus with 8 samples.

Results

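Eukaryotic translation initiation factors (eIFs) bring the small ribosomal subunit to the cap and the start codon of a messenger RNA. All rows of the deposited table whose symbol starts with Eif and a digit from 1 to 6 were taken, leaving out the eIF2 kinases Eif2ak1 to Eif2ak4. This gave 50 genes of the 11756 listed, and all 50 were among the 10091 genes that passed the filter on low values. They comprise 5 genes of the eIF1 group, 6 named for eIF2 and 5 for its exchange factor eIF2B. A further 14 belong to eIF3, 15 to eIF4, 4 to eIF5 and 1 is Eif6. The rule itself reads only the symbols.

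The libraries come from C57BL/6 mice, whose age the labels do not give. Cells positive for CD11c, an integrin of dendritic cells and some macrophages, were sorted from femur and tibia marrow. On culture day 6 they were loaded for 24 h with acetylated low density lipoprotein (acLDL), which scavenger receptors take up (4 libraries), or were kept as controls (4 libraries). The series' design text presents acLDL as a stand-in for the surroundings in an atherosclerotic vessel, so the comparison asks what lipid loading does to these cells. Whether the 4 libraries of a group are separate mice or dishes is not stated, and a p-value here speaks only of the scatter among libraries, which may be technical.

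In initiation, eIF2 carries the initiator tRNA to the small subunit, and eIF2B recharges eIF2 with GTP. Stress kinases phosphorylate the alpha subunit of eIF2, which then blocks eIF2B and lowers protein synthesis. The large eIF3 complex scaffolds the preinitiation complex. The cap-binding complex eIF4F consists of eIF4E, the helicase eIF4A and the scaffold eIF4G, and the 4E-binding proteins (4E-BPs), which the kinase mTOR controls, keep eIF4E from eIF4G. In dendritic cells and macrophages this machinery is known for its part in the burst of protein synthesis on activation.

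Some libraries stood apart, and this touches most results below. An index of short transcripts was computed for each library, as the mean log2 deviation of 487 tested genes with a longest coding transcript under 1000 nt minus that of 4821 genes of 3000 nt or more, without the initiation factors. It was 1.05, -1.24, -2.17 and -0.24 in acLDL libraries 1 to 4 and 0.08, 0.88, 0.97 and 0.66 in control libraries 1 to 4. Thus every control exceeded acLDL libraries 2, 3 and 4, and acLDL library 1 lay above every control. Library totals ranged from 3917426 to 4385051, and between 662 and 2574 of the listed genes were at 0 in a library, the most in acLDL library 3. Among these were genes of core eIF3 subunits such as Eif3m, so such a gene is only said to be listed at 0, and each library's value is given. Itgax, which encodes CD11c, was listed at 189, 10.004, 0 and 42.7 with acLDL and at 81.5, 182, 195 and 172 in controls. Of 8 granulocyte markers tested, 7 had a lower mean with acLDL, and their summed value ranged from 479 to 11338 in the acLDL group and from 5413 to 13186 in the control group. Of 10 macrophage markers, 7 had a lower mean, with sums from 25385 to 58619 and from 40951 to 65715 in the same order. Of 11 dendritic cell markers tested, 9 had a lower mean (median log2 fold change -0.82), although the sums over 12 listed were 29002 to 44822 (acLDL) and 23289 to 29467 (control). Most of that sum was H2-Eb1, at 34550 ± 9348 and 22132 ± 3387 (SD, n = 4). Of the erythroid markers Hbb-bs was listed, lower with acLDL, and 3 lymphocyte markers had a higher mean with acLDL at summed values from 61.6 to 95.1, against 19.9 to 40.8 in controls. The part of these differences in the results below was not tested.

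As a whole the initiation factors split into genes with a higher and genes with a lower mean in acLDL libraries, and no gene passed the threshold. In limma, with Benjamini-Hochberg adjustment over all 10091 genes, 0 of 50 members and 0.0% of all genes passed at an adjusted p under 0.05, and the smallest adjusted p among members was 0.298. At an unadjusted p under 0.05 there were 9 members with a higher and 8 with a lower mean, or 18% and 16% of the members. Over all genes tested these shares were 7.42% and 8.93%. The groups did not overlap for 2 members higher with acLDL (Eif3j1 and Eif4g2) and 1 lower (Eif2s3x), against 3.44% and 2.2% of all genes. The mean log2 value was higher with acLDL for 20 members and lower for 30. The median log2 fold change, acLDL minus control on the log2(value + 5) scale, was -0.37 over the members and -0.13 over all genes tested. In bulk samples such as these, fewer cells that express a gene and less RNA per cell cannot be told apart.

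The libraries that stood apart held the extreme values of many members. In 18 members acLDL libraries 2 and 3 both lay below the other 6 libraries, and in 11 both lay above them, or 36.0% and 22.0% of the members, against 19.8% and 16.0% of all genes. For 32 of the 50 members acLDL library 1 fell inside the span of the controls. Without acLDL library 1, limma's adjusted p passed for 20 members, 8 higher and 12 lower, where 7.71% of the 9476 genes then tested were called higher and 14.5% lower. With array weights, which give libraries far from their group less weight, 16 members passed, 7 higher and 9 lower, against 6.49% and 12.9% of all genes. Of these, 14 also passed without acLDL library 1. Without acLDL libraries 2 and 3 no member passed, nor did any of the 9570 genes then tested. No member had an unadjusted p under 0.05 in that fit. It kept only acLDL libraries 1 and 4 against the controls, which made a call harder for any gene. Leaving out any other single library gave no call. Because acLDL library 1 fell among the controls for most members, leaving it out tends to widen the group difference. An adjusted p from that fit, here and below, is therefore a description and not a separate test of acLDL.

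**Figure D1:**
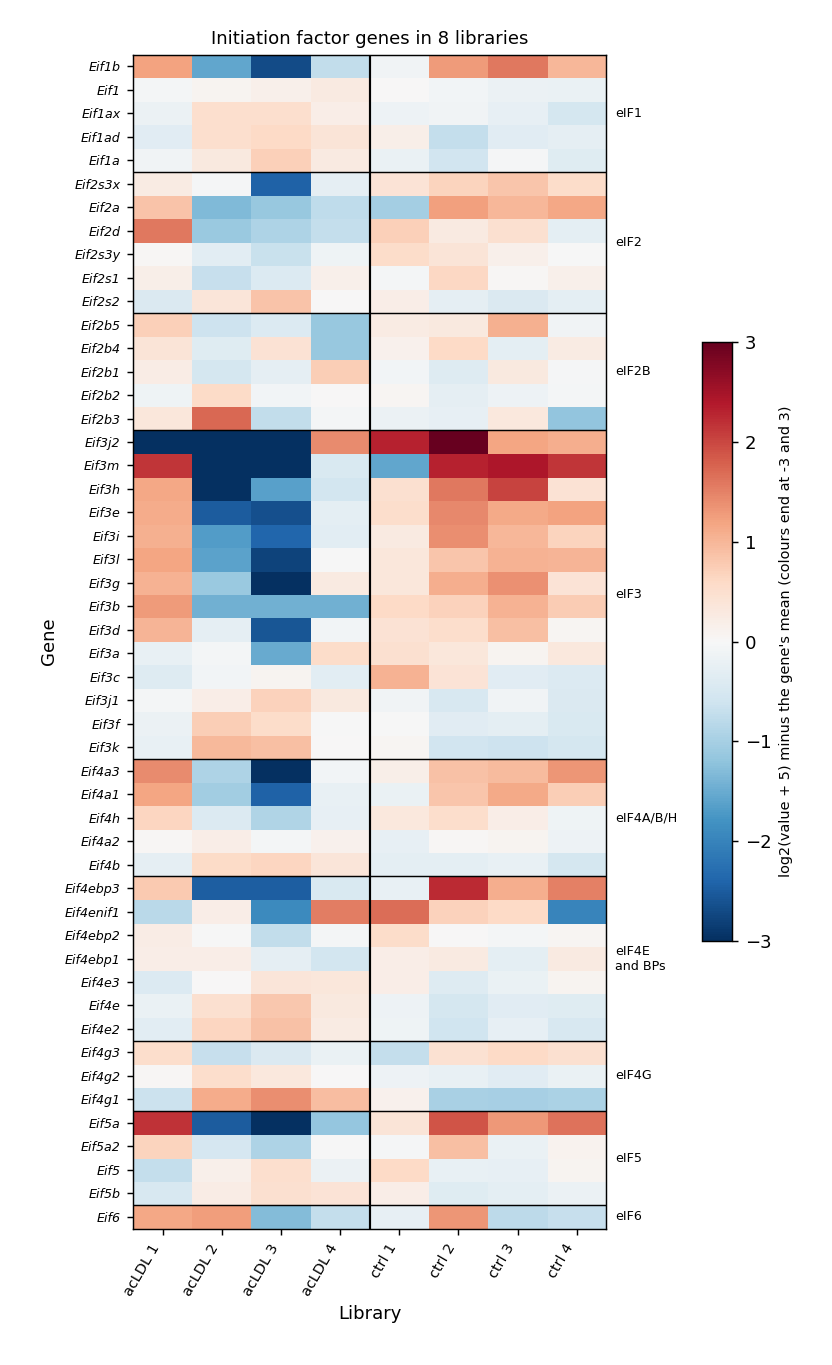
Heat map of the 50 initiation factor genes (rows, by factor) in 8 libraries (columns, acLDL 1 to 4 and control 1 to 4); colour is log2(value + 5) minus the gene's mean over the libraries, with the colours ending at -3 and 3. Blue cells, below the gene's mean, gather in acLDL libraries 2 and 3 for most eIF3 genes, Eif4a1, Eif4a3 and Eif5a, while Eif4g1, Eif4e, Eif4e2 and Eif3k are red there.

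Summed over members, the signal of initiation factors took 0.758% ± 0.0457 (SD, n = 4) of a library with acLDL and 0.696% ± 0.0457 in controls. Per library it was 0.692%, 0.765%, 0.797% and 0.775% with acLDL and 0.759%, 0.696%, 0.650% and 0.681% in controls, so the groups overlapped. The eIF4 genes took 0.181%, 0.183%, 0.174% and 0.183% with acLDL and 0.166%, 0.161%, 0.162% and 0.161% in controls, without overlap. The parts of this sum differed. In acLDL libraries 1 to 4 the Eif4a, Eif4b and Eif4h genes took 0.0776%, 0.0482%, 0.0372% and 0.0551%. The eIF4E genes with their binding proteins took 0.0721%, 0.0979%, 0.0976% and 0.0909% there. Both parts overlapped the controls, while the eIF4G genes did not. How often sums of other genes separate the groups was not examined. For eIF3 the shares were 0.151%, 0.154%, 0.126% and 0.163% with acLDL and 0.175%, 0.177%, 0.156% and 0.16% in controls, with overlap. These sums weigh the genes of high signal most, whereas the medians below weigh every gene alike, and the median of eIF4 was slightly negative although its sum was higher.

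Of the 14 eIF3 genes, the mean was higher for 3 and lower for 11, with a median log2 fold change of -1.56. The median was -0.84 without acLDL library 3, -0.34 without acLDL libraries 2 and 3, and -0.48 over the genes above 0 in all 8 libraries. None passed over all genes. The unadjusted p was under 0.05 for 2 with a higher mean (Eif3j1 and Eif3k) and 5 with a lower mean (Eif3b, Eif3e, Eif3h, Eif3i and Eif3j2). Over all genes tested these shares were 7.42% higher and 8.93% lower. The median deviation of the eIF3 genes from each gene's mean was 1.03, -1.28, -2.01 and -0.05 in acLDL libraries 1 to 4 and 0.39, 0.76, 1.02 and 0.42 in the controls. The subunits that make the ring of PCI and MPN domains at the core of eIF3 (a, c, e, f, h, k, l and m) lay on both sides.

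Starts of 4 core subunit genes, picked after their values were seen, are shown because these genes lay on opposite sides while each has a tract of C and T near its start. Such a tract at the very 5′ end marks messages under mTOR control, known as TOP messages. Each line gives 20 bases before and 30 from the RefSeq start on (GRCm38.p6), with the first run of at least 8 letters that are each C or T in capitals. Eif3f is at chr7:108934395-108934444 on the plus strand and Eif3k at chr7:28981859-28981908 on the minus strand. Eif3l is at chr15:79075203-79075252 on the plus strand and Eif3m at chr2:105016998-105017047 on the minus strand.
Eif3f: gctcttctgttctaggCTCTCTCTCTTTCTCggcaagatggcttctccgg
Eif3k: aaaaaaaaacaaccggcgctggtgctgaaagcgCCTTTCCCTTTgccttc
Eif3l: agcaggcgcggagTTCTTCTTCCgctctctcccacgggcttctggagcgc
Eif3m: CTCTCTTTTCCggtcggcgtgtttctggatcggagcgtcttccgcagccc
In Eif3f the run of 15 letters covers the annotated start, and in Eif3k a run of 11 begins at base 14 of the transcript. In Eif3l the run of 10 begins 7 bases before the start. In Eif3m the run of 11 opens the window, 20 bases before the start, and may reach further upstream. A RefSeq promoter was found for 39 of the 50 members, 5 of them with more than 1. On the sense strand, 23.5% of the members' 51 windows held such a run, against 18.8% for tested genes and 19.0% of all windows in the table. On the other strand the shares were 13.7%, 20.2% and 21.9%. Of 10 members with a run, the mean with acLDL was higher for 4 and lower for 6 (median log2 fold change -0.52), and of 29 without one, 11 and 18 (median -0.35). A match describes letters in this window and does not show where transcripts start in these cells.

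Eif3k, on chromosome 7 (28971372 to 28981864, minus strand, GRCm38), encodes a small core subunit. Its normalized value was 1144, 2629, 2477 and 1337 in acLDL libraries 1 to 4 and 1376, 895, 862 and 922 in controls. Libraries 2 and 3 with acLDL were the highest, while the other 2 lay between control library 1 and the remaining controls. The means were 1897 ± 765 and 1014 ± 243 (SD, n = 4), a log2 fold change of 0.83 (SE 0.31, limma's adjusted p = 0.298).
Eif3l, whose product binds that of Eif3k, went the other way, at 212, 26.2, 8.80 and 88.5 with acLDL and 115, 163, 189.7 and 188 in controls. The highest value of all was acLDL library 1, and the other acLDL libraries lay below every control. Within a library, the log2 value of Eif3k minus that of Eif3l does not depend on the scaling of the library apart from the added 5. It was 2.41, 6.4, 7.49 and 3.84 with acLDL and 3.53, 2.42, 2.16 and 2.27 in controls, so that acLDL library 1 lay among the controls. This pair was chosen after its values were seen.

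Eif3f and Eif3h encode the pair of MPN-domain subunits. Eif3f was listed at 496, 941, 819 and 552 with acLDL and 553, 441, 456 and 404 in controls, where only acLDL libraries 2 and 3 lay above every control. Eif3h was at 122, 0, 13.2 and 33.2 with acLDL and at 73.9, 163, 224 and 71.5 in controls, and every control exceeded acLDL libraries 2, 3 and 4. Without acLDL library 1, limma's adjusted p was 0.031 for Eif3h and 0.058 for Eif3f.

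Eif3e, a core subunit gene on chromosome 15 (43250058 to 43282719, minus strand), was at 1248, 96.7, 87.0 and 465 with acLDL and at 830.4, 1558, 1260.2 and 1313 in controls. The first acLDL library lay within the controls and the other 3 below them. The means were 474 ± 545 and 1240.4 ± 303 (SD, n = 4), with a log2 fold change of -2.16 (SE 0.78, limma's adjusted p = 0.298, and 0.024 without acLDL library 1). For Eif3e the log2 fold change was -0.66 without acLDL libraries 2 and 3. Of its 31-base words, the length on which kallisto matches reads by default, 42.0% also occur in transcripts of other genes, 30.5% in the pseudogene Eif3s6-ps2, so its level is uncertain.
Eif3m, another core subunit gene, was at 247, 0, 0 and 36.8 with acLDL and at 14.5, 279.9, 303 and 246 in controls. Here control library 1 lay among the acLDL libraries, and 53.7% of its 31-base words are shared with other genes.

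**Figure D2:**
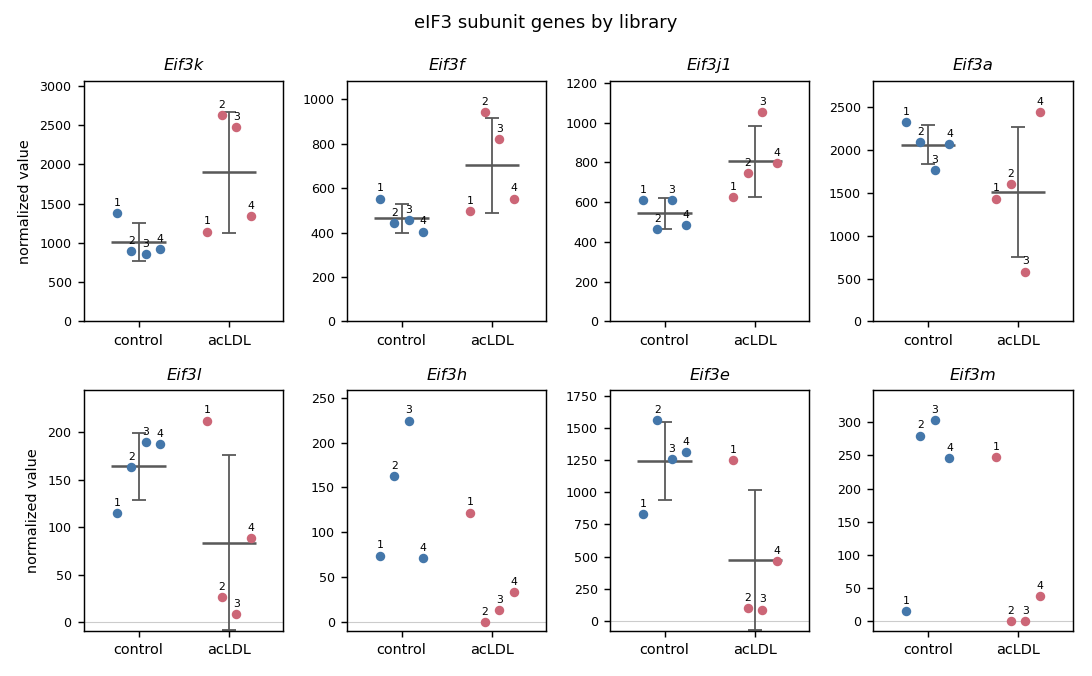
Normalized values of 8 eIF3 subunit genes in each control (blue) and acLDL (red) library, numbered by replicate; bars are mean ± SD of 4 libraries, left out for Eif3h and Eif3m, which are listed at 0 in some libraries. In Eif3l, Eif3h and Eif3e, acLDL library 1 sits among or above the controls and libraries 2, 3 and 4 below them, and Eif3k and Eif3f show libraries 2 and 3 above the controls.

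Eif3a, the largest subunit and a scaffold of the complex, was at 1433, 1599.5, 582 and 2439 with acLDL and at 2327, 2096, 1764 and 2067 in controls. Here acLDL libraries 1, 2 and 3 lay below every control and library 4 above every control. The means were 1514 ± 761 and 2064 ± 231 (log2 fold change -0.61 with an SE of 0.39, adjusted p = 0.364 in limma). Eif3c, which pairs with it in the core, was at 346, 427, 485 and 368 with acLDL. Its controls ranged from 343 to 951, and control library 1 alone held the highest value.
Among the peripheral subunits, Eif3i was at 183, 23.0, 12.2 and 67.5 with acLDL, against controls of 103 to 231. Eif3g was listed at 102, 18.9, 0 and 57.7 with acLDL and at 60.2, 105, 129 and 63.6 in controls. Eif3b was at 28.0, 0, 0 and 0 and Eif3d at 54.8, 19.6, 0 and 23.0 with acLDL, with controls from 15.6 to 23.1 and from 25.7 to 50.4. In each of these 4 genes acLDL library 1 lay within or above the controls.

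The loosely bound subunit eIF3j has 2 genes in the mouse. Eif3j1 was at 625, 748, 1052 and 798 with acLDL and at 611, 466, 611 and 485 in controls, without overlap (log2 fold change 0.55 with an SE of 0.21, adjusted p = 0.298 in limma). Eif3j2 was listed at 0, 0, 0 and 111 with acLDL and at 212, 451, 93.9 and 87.1 in controls, the most negative log2 fold change of the members at -3.98 (SE 1.06), a size that depends on the added 5 where libraries are at 0. However, 94.9% of the 31-base words of Eif3j2 also occur in other genes, and 94.0% occur in Eif3j1, so the level of Eif3j2 is uncertain. Of the words of Eif3j1, 41.3% occur in other genes, mostly in Eif3j2. The sum of the 2 genes was 624.6, 747.8, 1051.6 and 908.7 with acLDL and 823.4, 916.9, 704.5 and 571.9 in controls, with means of 833 ± 186 and 754 ± 149 (SD, n = 4). The sum overlapped between the groups, and it was examined after the single values were seen.

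Genes of the cap-binding machinery also lay on both sides, with 7 of 15 eIF4 genes higher and 8 lower (median log2 fold change -0.22), and none passed over all genes. The unadjusted p was under 0.05 for 5 higher genes, Eif4b, Eif4e, Eif4e2, Eif4g1 and Eif4g2, and 1 lower gene, Eif4ebp3. Over all genes tested these shares were 7.42% higher and 8.93% lower. Without acLDL library 1, Eif4b, Eif4e, Eif4e2 and Eif4g1 were called higher and Eif4a1, Eif4h and Eif4ebp3 lower. In that fit 7.71% of all genes were called higher and 14.5% lower. The median of the eIF4 genes turned to 0.06 without acLDL library 3 and to 0.05 without acLDL libraries 2 and 3.

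Eif4g1, which encodes the main eIF4G scaffold (chromosome 16, 20668313 to 20692884, plus strand), had the highest log2 fold change of all members. It was at 223, 758, 926 and 670.1 with acLDL and at 380.1, 177, 173 and 178 in controls. Libraries 2, 3 and 4 with acLDL lay above every control, and acLDL library 1 lay below control library 1. The means were 644 ± 300.3 and 227 ± 102 (SD, n = 4), with a log2 fold change of 1.39 (SE 0.46, limma's adjusted p = 0.298). Without acLDL library 1 it was 1.84 (adjusted p = 0.023 in limma), and it ranged from 1.16 to 1.84 over the fits that each left out 1 library. Without acLDL libraries 2 and 3 it was 0.84.
Eif4g3, a second eIF4G scaffold, showed the opposite order at 676, 287, 343 and 405 with acLDL and 282, 647, 713 and 656 in controls. Control library 1 had the lowest value, next to the acLDL libraries 2, 3 and 4, and acLDL library 1 lay among the other controls. The difference between the log2 values of Eif4g1 and Eif4g3 within a library was -1.58, 1.39, 1.42 and 0.72 with acLDL and 0.43, -1.85, -2.01 and -1.85 in controls. Both genes have long transcripts, of 5638 and 8134 nt. By this difference acLDL library 1 lay with controls 2 to 4, and control library 1 lay nearest to acLDL library 4; the pair was chosen after its values were seen.
Eif4g2, whose product supports initiation without the cap and lacks the eIF4E site, was at 378, 537, 466 and 377 with acLDL and at 336, 314, 293 and 322 in controls. The groups did not overlap, with means of 439.5 ± 77.2 and 316 ± 17.97 (log2 fold change 0.45 with an SE of 0.19, adjusted p = 0.298 in limma).

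Eif4e encodes the cap-binding protein itself, and its values were 131, 216, 270.2 and 188 with acLDL and 135, 105, 119 and 117 in controls. The acLDL libraries 2, 3 and 4 lay above the controls and the first within them (means 201 ± 57.9 and 119 ± 12.7, log2 fold change 0.70 with an SE of 0.26, adjusted p = 0.298 in limma). Eif4e2, a relative that binds the cap and represses translation, was at 1133, 2219.9, 2639 and 1701 with acLDL and at 1291, 945, 1204 and 1010.2 in controls, in the same order. Eif4e3, the third relative, spanned 325 to 559.7 with acLDL against 329 to 492 in controls.
The 4E-BP genes differed among themselves. Eif4ebp1 was at 624, 624, 446 and 367 with acLDL and at 619, 651, 444 and 657 in controls, with a log2 fold change of -0.22 (SE 0.24). Eif4ebp2 was at 695, 584, 353 and 568 with acLDL and at 875, 594, 572 and 618 in controls, with a log2 fold change of -0.29 (SE 0.25). Both overlapped widely. Eif4ebp3 was listed at 42.6, 0, 0 and 15.1 with acLDL and at 18.6, 126, 53.8 and 74.1 in controls, and 66.4% of its 31-base words also occur in AC115631.1, a gene model that overlaps it on the same strand. Eif4enif1, which encodes the transporter of eIF4E into the nucleus, spanned 11.5 to 173 with acLDL against 10.6 to 194 in controls.

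The helicase genes Eif4a1 and Eif4a2 encode close relatives that both work in eIF4F. Eif4a1 was at 518, 107, 38.4 and 193 with acLDL and at 197, 406, 507 and 379 in controls, with the highest value in acLDL library 1 and the other acLDL libraries below every control. Eif4a2 was at 504, 569, 470.4 and 537 with acLDL and at 414, 505, 520.5 and 446 in controls, with means of 520.3 ± 42.6 and 471 ± 49.9 (log2 fold change 0.14 with an SE of 0.17, adjusted p = 0.614 in limma). Of the 31-base words of Eif4a1, 67.5% are shared with other genes, 66.3% with the pseudogene Eif4a-ps4, against 16.9% for Eif4a2.
Eif4a3, a member of the exon junction complex, was at 371, 69.2, 5.49 and 129 with acLDL, against controls of 153 to 348. Eif4b, which stimulates the helicase, was at 322, 579.9, 611 and 502 with acLDL and at 314, 315, 331 and 265 in controls. Its acLDL libraries 2 to 4 lay above every control, with means of 504 ± 129.5 and 306 ± 28.7 (log2 fold change 0.67 with an SE of 0.24, adjusted p = 0.298 in limma). Eif4h, a small helper of the same helicase, was at 1492, 712, 505 and 796 with acLDL and at 1179.6, 1371, 1099.8 and 871 in controls, in the reverse order.

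**Figure D3:**
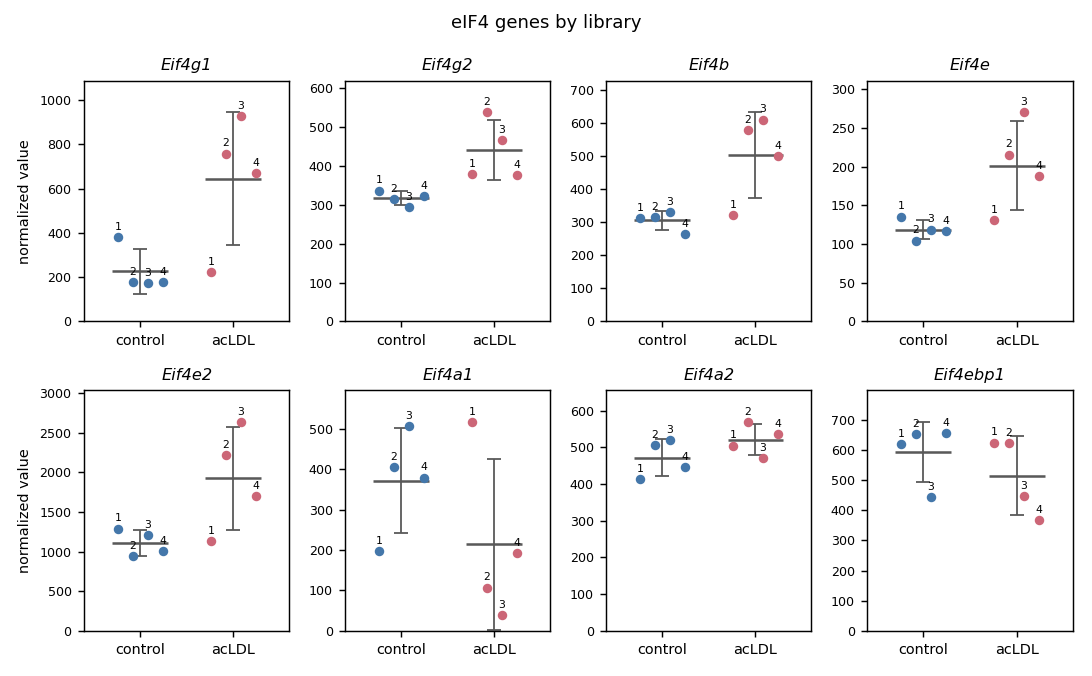
Normalized values of 8 eIF4 genes in each control (blue) and acLDL (red) library, numbered by replicate, with mean ± SD of 4 libraries. Libraries 2 to 4 with acLDL lie above the controls for Eif4g1, Eif4b, Eif4e and Eif4e2 and below them for Eif4a1, library 1 lies at the level of the controls in each of these but Eif4a1, where it is highest, and Eif4a2 and Eif4ebp1 overlap.

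Of the 11 genes of eIF2 and its exchange factor, the mean was higher for 4 and lower for 7, with a median log2 fold change of -0.38, and of -0.02 without acLDL libraries 2 and 3. None had an unadjusted p under 0.05, against 7.42% higher and 8.93% lower over all genes tested. In 1, Eif2s3x, the groups did not overlap, with acLDL lower, against 2.2% of all genes. For the 6 genes named for eIF2 the median was -0.57 and for the 5 eIF2B genes 0.09.
Eif2s1, the gene of the phosphorylated alpha subunit, was at 339.7, 183, 226 and 337 with acLDL and at 288, 469, 307 and 336 in controls. Libraries 2 and 3 with acLDL were the lowest and the other 2 lay within the controls (means 272 ± 79.1 and 349.9 ± 81.6, log2 fold change -0.38 with an SE of 0.27, adjusted p = 0.405 in limma). Eif2s2, the beta subunit gene, was at 4275, 7461, 10463 and 5890.2 with acLDL and at 6715, 4824, 4330.2 and 4788 in controls, with the highest values in acLDL libraries 3 and 2. Of its 31-base words, 32.1% are shared with the predicted gene Gm9892.

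The gamma subunit has an X-linked and a Y-linked gene, and their starts are shown because both copies are listed here. Eif2s3x lies at chrX:94212622-94212671 on the minus strand and Eif2s3y at chrY:1010575-1010624 on the plus strand, again with 20 bases before and 30 from the start on and the first run of C and T in capitals.
Eif2s3x: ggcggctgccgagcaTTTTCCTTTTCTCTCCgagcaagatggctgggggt
Eif2s3y: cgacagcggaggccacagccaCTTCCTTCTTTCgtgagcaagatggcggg
Eif2s3y was at 81.5, 62.9, 48.4 and 72.7 with acLDL and at 119, 107, 89.7 and 78.5 in controls, so RNA of the Y-linked gene was listed in all 8 libraries. Only acLDL library 1 reached into the range of the controls (means 66.4 ± 14.2 and 98.5 ± 17.96, SD, n = 4; log2 fold change -0.54 with an SE of 0.27, adjusted p = 0.301 in limma). Eif2s3x was listed at 27.0, 21.0, 0 and 17.3 with acLDL and at 30.8, 37.4, 43.0 and 34.3 in controls, with all acLDL libraries below all controls (log2 fold change -1.24 with an SE of 0.60, adjusted p = 0.3002 in limma). Its transcript shares 36.9% of its 31-base words with other genes, mostly the predicted gene Gm2223, while that of Eif2s3y shares 0.2%.

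Eif2a and Eif2d encode proteins that can bring tRNA to the ribosome apart from eIF2. Eif2a was at 121, 22.7, 26.3 and 35.7 with acLDL and at 29.5, 158, 134 and 150.4 in controls, with acLDL library 1 among the controls and control library 1 among the acLDL libraries. Eif2d was at 301, 42.3, 49.1 and 57.4 with acLDL, against controls of 78.4 to 165. Its highest value was acLDL library 1, and the other 3 acLDL libraries lay below every control (adjusted p = 0.034 in limma without acLDL library 1). Its log2 fold change was -0.59 over all libraries and 0.13 without acLDL libraries 2 and 3.
The eIF2B genes had low values. Eif2b5, the catalytic epsilon subunit, was at 52.2, 17.7, 21.3 and 10.9 with acLDL and at 36.5, 37.7, 68.5 and 27.4 in controls (log2 fold change -0.74 with an SE of 0.47, adjusted p = 0.367 in limma). Eif2b2 was at 132, 218, 136 and 145 with acLDL and at 149, 119, 129 and 138 in controls, and only acLDL library 2 lay outside the range of the others. Eif2b3 was at 45.9, 128, 18.9 and 33.4 with acLDL and at 30.3, 29.1, 45.0 and 12.8 in controls, again with acLDL library 2 the highest. Eif2b1 and Eif2b4 overlapped, with log2 fold changes of 0.09 and -0.35.

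The factors eIF1 and eIF1A keep the scanning ribosome open until the start codon is found. In the eIF1 group, taken by symbol, 4 of 5 genes had a higher mean and 1 a lower (median log2 fold change 0.52). One of the higher genes, Eif1ad (0.58), is in the group by its symbol only. Eif1 was at 5487, 6024, 6378 and 6820.1 with acLDL and at 5725, 5353, 5071 and 4957 in controls, and acLDL library 1 alone fell within the controls (means 6177 ± 564 and 5276 ± 342, log2 fold change 0.22 with an SE of 0.14, adjusted p = 0.369 in limma).
The eIF1A genes Eif1a and Eif1ax exceeded every control in acLDL libraries 2, 3 and 4. Eif1a was at 475, 622, 838 and 612 with acLDL and at 444, 340.4, 492 and 392 in controls. Eif1ax was at 772, 1230.2, 1237 and 996 with acLDL and at 777, 802, 729 and 597 in controls. Their log2 fold changes were 0.59 (SE 0.22) and 0.52 (SE 0.21), with limma's adjusted p = 0.298 for both. Without acLDL library 1 the adjusted p was 0.042 and 0.037. Without acLDL libraries 2 and 3 the log2 fold changes were 0.38 and 0.28. The lower gene was Eif1b, at 68.6, 5.8, 0 and 14.1 with acLDL and at 24.8, 72.9, 90.4 and 58.4 in controls.

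Of the late-acting factors, Eif5a, which helps the ribosome through difficult peptide bonds, had the widest range. It was at 1462, 52.4, 19.7 and 141 with acLDL and at 418, 1198, 789 and 1002 in controls (chromosome 11, 69916714 to 69921958, minus strand). The highest of all 8 values was acLDL library 1, and the other 3 acLDL libraries lay below every control. The log2 fold change was -2.60 (SE 1.09, limma's adjusted p = 0.298), and -3.75 without acLDL library 1 (adjusted p = 0.023). Without acLDL libraries 2 and 3 it was -0.79.
Eif5, which triggers GTP hydrolysis on eIF2, was at 755, 1382, 1757 and 1088 with acLDL and at 1885, 1064, 1035 and 1301 in controls. The groups overlapped widely (means 1245 ± 427 and 1321 ± 394, log2 fold change -0.11, SE 0.30). Eif5b, the factor that joins the ribosomal subunits, was at 93.7, 156, 189 and 179 with acLDL and at 153, 103, 107 and 117 in controls (log2 fold change 0.32, SE 0.28). Eif6, which keeps the large subunit from joining too early, was at 146, 155, 22.3 and 36.0 with acLDL and at 52.1, 164, 34.2 and 36.5 in controls, with high and low values in both groups. Eif5a2, a relative of Eif5a, spanned 14.2 to 53.2 with acLDL against 27.1 to 63.7 in controls.

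The sign of the difference went with transcript length among members as it did among all genes. Of 9 members whose longest coding transcript is under 1500 nt, 7 had a lower mean with acLDL (median log2 fold change -1.88), against 77.4% of 1259 tested genes in that range (median -1.14). Of 22 members from 1500 to under 3000 nt, 13 were lower (median -0.40), and of 19 members of 3000 nt or more, 10 (median -0.11). For all genes the shares were 59.3% and 50%. Across the 50 members, Spearman's correlation of log2 fold change with length was 0.50, and across 8988 genes with a length it was 0.28. These points share the same 8 libraries and are given as a description. Eif3k, at 909 nt, and Eif1, at 1322 nt, were the members under 1500 nt with a higher mean.

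**Figure D4:**
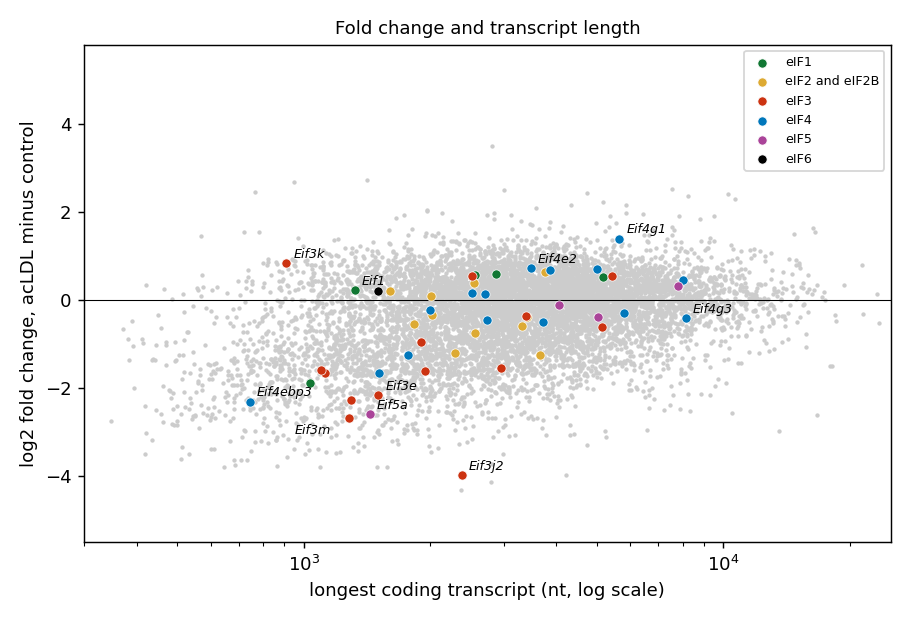
Log2 fold change of acLDL minus control against the length of the longest coding transcript (log axis); grey points are the other tested genes and coloured points the 50 initiation factors by factor. Members under 1500 nt lie mostly below zero, with a median of -1.88, apart from Eif3k and Eif1, while Eif3j2, at 2379 nt, lies lowest.

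With the short-transcript index of each library as a covariate, the differences of most members shrank. The median log2 fold change of the members went from -0.37 to 0.08, that of eIF3 from -1.56 to -0.11, that of eIF4 from -0.22 to 0.19 and that of eIF2 with eIF2B from -0.38 to -0.15. Over all genes the median went from -0.13 to 0.01. The median of the dendritic cell markers went from -0.82 to -0.07, that of the macrophage markers from -1.43 to -0.04 and that of the granulocyte markers from -2.02 to -0.14. The value for Hbb-bs (from -2.52 to -2.95) and the median of the lymphocyte markers (from 1.12 to 1.01) stayed away from 0. Of the 50 members, 12 changed sign, among them Eif4a1 (from -1.25 to 0.19) and Eif3m (from -2.67 to 0.08). The value for Eif5a went from -2.60 to -0.29, for Eif3e from -2.16 to -0.54, for Eif4g1 from 1.39 to 0.54 and for Eif3k from 0.83 to 0.27. Those for Eif3j2 (from -3.98 to -3.62) and Eif2s3y (from -0.54 to -0.33) moved less, and that for Eif5 went from -0.11 to -0.66. No member passed over all genes with the covariate in limma (smallest adjusted p = 0.830), and 2 (Eif5 and Eif3j2), or 4% of the members, had an unadjusted p under 0.05, against 5.04% of all genes in that fit. The index was lower in acLDL libraries 2 to 4 than in every control, so the covariate can also take away a difference due to acLDL, and the 2 cannot be told apart here.

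**Figure D5:**
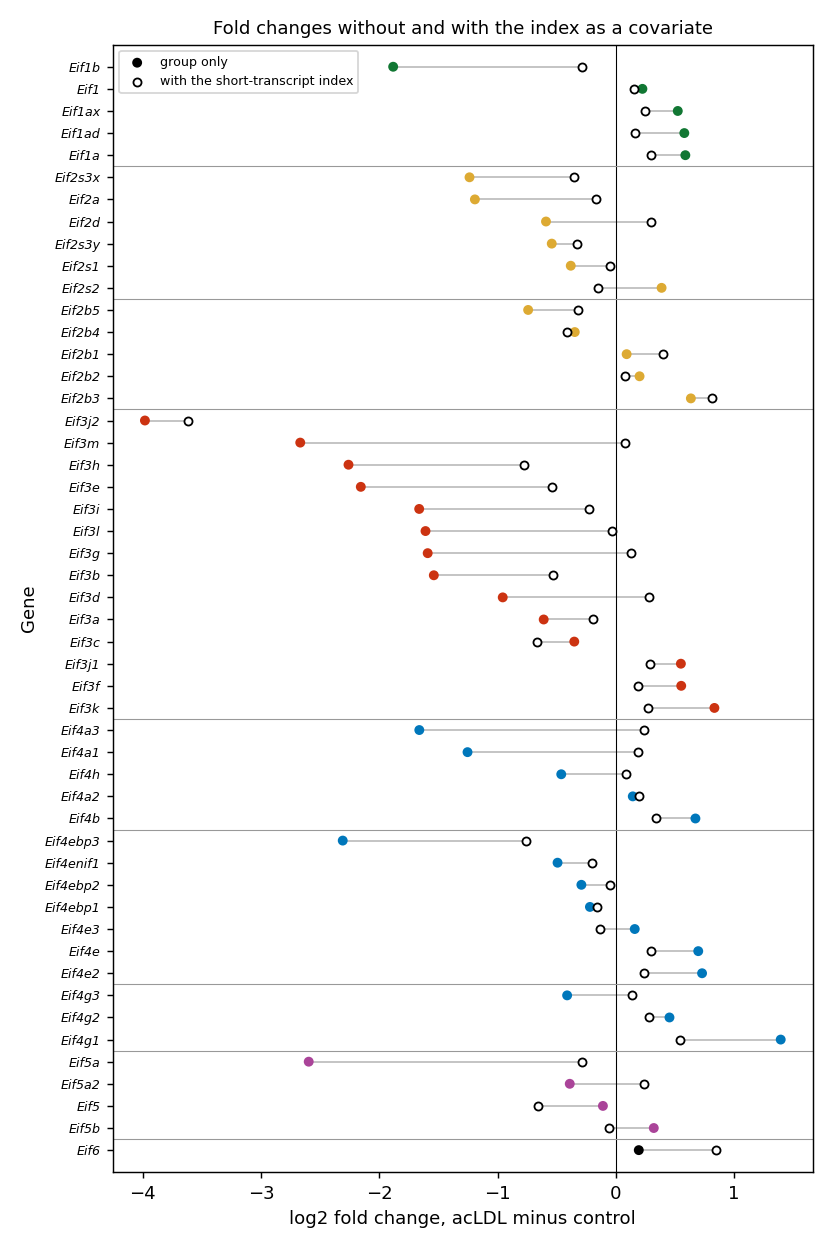
Log2 fold change of each initiation factor gene with the group as the only term (filled, coloured by factor) and with the short-transcript index as a covariate (open). Lines show the shift: Eif5a goes from -2.60 to -0.29 and Eif4g1 from 1.39 to 0.54, while Eif3j2 goes from -3.98 to -3.62.

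Other genes of translation and of the signals that act on these factors were taken from lists of general knowledge, and none passed the threshold. Of 11 tested genes of elongation and release, the mean was higher for 6 and lower for 5 (median log2 fold change 0.56). Eef1b2, an exchange factor for elongation, was at 2391, 3556, 3419 and 3029.6 with acLDL and at 2251, 1781, 2009.6 and 1921 in controls, without overlap. Eef1a1, the tRNA carrier of elongation, was at 4137, 763, 1039 and 992 with acLDL and at 2901, 3894, 4428 and 2985 in controls, with only acLDL library 1 among the controls.
Of 15 other helpers of initiation, 4 were higher and 11 lower (median -0.36). Among them the helicase gene Ddx3x had means of 124 ± 21.8 (acLDL) and 199.95 ± 36.9 (control; SD, n = 4), and Dhx9 of 54.1 ± 31.7 and 144 ± 41.0. Of 15 genes of poly(A) binding and cap partners, 5 were higher and 10 lower (median -0.43). The poly(A)-binding protein gene Pabpc1 had means of 348 ± 199.98 and 707 ± 213. Its partner Paip1 was at 241, 145, 198 and 233 with acLDL and at 172, 1838, 842 and 552 in controls, where control library 1 lay among the acLDL libraries and control library 2 was far the highest.

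Genes that act on eIF2 phosphorylation lay on both sides, with 5 of 9 tested kinase and phosphatase genes higher and 4 lower (median 0.13). Ppp1r15b, which directs a phosphatase to eIF2, was at 317, 531, 555 and 334 with acLDL and at 153, 270.3, 283 and 329.5 in controls, and Ppp1ca, a catalytic subunit, at 546, 102, 59.0 and 217 with acLDL and 369, 546, 512 and 435 in controls. Of 18 tested targets of the integrated stress response, the program that follows eIF2 phosphorylation, 6 were higher and 12 lower (median -0.25). The tRNA synthetase gene Sars averaged 618 ± 297 with acLDL and 291 ± 81.2 in controls, and Nupr1 was listed at 26.8, 0, 0 and 16.9 with acLDL, against controls of 21.2 to 64.2. Of 22 tested genes of mTOR complex 1, S6 kinase and their regulators, 9 were higher and 13 lower (median -0.14). Lamtor1, which anchors the complex to lysosomes, was at 503, 668, 879.9 and 699 with acLDL and at 466, 394, 493 and 447 in controls. Pdpk1, an upstream kinase, was at 74.6, 34.2, 69.1 and 42.1 with acLDL and at 89.8, 100.005, 97.8 and 122 in controls. In both genes the groups did not overlap, and limma's adjusted p was 0.298.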

How the data were processed

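Polyadenylated RNA of 8 libraries was sequenced. The labels' protocols name a QuantSeq 3′ kit, although the design text speaks of 5′ quantification. The tools bcl2fastq 2.20 and kallisto, the latter without a version, and the build mm10 (GRCm38) are listed per the submitters' processing notes. How the values were annotated, filtered and scaled is not given in the sources used here. A table deposited by the authors holds 1 normalized signal per gene and library. Its name says raw counts, yet the values have decimals, and none lies between 0 and 5, so a value of 0 may stand for a low estimate. Depth in reads is unknown, and no counting interval is given.

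Genes that reached 10 in 4 or more libraries were fitted with limma 3.58.1 (R 4.3.3, variance trend, robust moderation) on log2(value + 5), with the group as the only term. Every adjusted p is limma's, by Benjamini-Hochberg over all genes tested, with 0.05 as threshold, and the fit was tested on simulated data. The simulated scatter was independent for each gene and library, so the simulation does not cover scatter that many genes of a library share. The added 5 shrinks fold changes of low genes, while a 0 that stands for a low estimate can enlarge them. Transcript lengths and shared 31-base words came from the GENCODE mouse annotation of GRCm38, and promoters from RefSeq (GRCm38.p6). The shares of words count the whole longest coding transcript. The protocols name a 3′ kit, so the share in the part that was read may differ. The members, the lists and the tests were chosen with earlier results of these data known. Values per library are given for the 2 members with the smallest p and the member with the highest mean in each factor, for 18 members set by symbol, and for others chosen after their values were seen. From each list of other genes of translation the 2 with the smallest p are named. Alternatives were other pseudocounts (1 and 20), filters, scalings, array weights, a replicate block, the short-transcript index and leaving out libraries.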

Additional observations from a re-analysis of the deposited data

Results flagged for a closer look

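Among the 100 groups of 4 libraries examined (50 members in each treatment group), 12 held a library far from the other 3, by Dixon's test of the gap to the nearest value. The test is set to flag about 1 group in 20 where values are independent and normally distributed. These groups share the same libraries and some hold libraries at 0, so the count cannot be set against that rate. Control library 1 was far above the other controls for Eif3k (1376), Eif4g1 (380.1) and Eif4ebp2 (875), and far below them for Eif4g3 (282). The first acLDL library was far above the other acLDL libraries for Eif5a (1462), Eif2a (121), Eif2d (301), Eif3m (247) and Eif3b (28.0, the others listed at 0). Further cases were acLDL library 2 for Eif2b2 (218), acLDL library 4 for Eif3j2 (111, the others listed at 0) and control library 2 for Eif6 (164).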

How the results depend on the processing

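The count of initiation factors past the threshold was 0 in limma as reported, with 17 at an unadjusted p under 0.05 and 1650 over all genes. It went to 16 with array weights (1957 over all genes) and to 20 without acLDL library 1 (2102 over all genes), so that leaving out 1 library gave 0 to 20 members and 0 to 2102 genes. Quantile normalization called 1 gene and no member. The cause was not tested. This scaling moved the median of all genes from -0.13 to 0.15 and that of the members from -0.37 to -0.21. The median of all genes was 0.03 among genes above 0 in all 8 libraries and 0.01 with the short-transcript index. With that index the median was 0.08 for the members, -0.11 for eIF3 and 0.19 for eIF4. Without acLDL libraries 2 and 3 it was -0.03 for the members, -0.02 for eIF2 with eIF2B, -0.34 for eIF3 and 0.05 for eIF4. Among genes above 0 in all 8 libraries, where fewer members were tested, it was -0.11, -0.48 for eIF3 and -0.04 for eIF4, and the filter at 50 gave -0.04 for eIF4. Array weights gave 0.13 for eIF4. Leaving out each library in turn gave -0.53 to -0.23 for eIF2 with eIF2B, -2.21 to -0.84 for eIF3 and -0.30 to 0.06 for eIF4. Single members were followed through all settings for the 31 chosen by the naming rule only. Among these the sign turned with the index for Eif2s2 (-0.15), Eif4a1 (0.19), Eif4g3 (0.14), Eif4h (0.09) and Eif5b (-0.06). Among the same 31 it turned without acLDL libraries 2 and 3 for Eif2s2 (-0.02) and with array weights for Eif5 (0.02). Leaving out a library gave log2 fold changes of -0.30 to 0.11 for Eif5 and -0.19 to 0.67 for Eif6. With the replicate number as a block, the median of the members stayed at -0.37, 0 members passed, and 3, or 6% of the members, had an unadjusted p under 0.05, against 7.23% of all genes. The labels give only a number, and deviations of same-numbered libraries correlated at -0.55, -0.21, -0.28 and 0.03, so the numbers were not taken to pair the libraries.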
